A study of Mus musculus with 12 samples.

Results

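Among the dendritic cells (DC) of the inflamed mouse lung, 1276 of 10934 genes tested had array signals that did not overlap between conventional DC (cDC) and monocyte-derived DC (moDC). Of these, 543 (4.97% of the genes tested) were higher in cDC and 733 (6.7%) were higher in moDC. A gene was taken when every one of 6 arrays on one side lay beyond every one of 6 arrays on the other. The rule itself uses this difference, so the levels on both sides are a description and carry no test, and nothing is read from the shares of 11.7%, 4.97% and 6.7% that it fixes.

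The DC were sorted from lungs of male C57BL/6J mice aged 8 to 12 weeks. All mice had received 100 ng of lipopolysaccharide, a bacterial cell wall component, together with 100 ug of the foreign protein ovalbumin in 50 ul of PBS into the airway 16 h earlier, so both sides carry the treatment, and lungs without it are not analysed here. The cDC side held CD103+ cDC and CD11bhi CD14lo cDC (CD14lo cDC), and the moDC side held CD11bhi CD14hi moDC (CD14hi moDC) and CD11bhi Ly6Chi moDC (Ly6Chi moDC, which the labels call inflammatory), with 3 arrays in each population. Each replicate pooled 20 mice, the sort purity was over 93% per the labels, and 50 ng of RNA was amplified for each array. The labels do not state whether replicates that share a number shared mice. In sorted bulk samples, fewer cells with a message and less message in each cell cannot be told apart.

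Conventional DC arise from bone marrow precursors that depend on the growth factor receptor Flt3, and they carry antigen from the lung to the draining lymph node, where they prime T cells. Monocyte-derived DC come from blood monocytes that enter inflamed tissue, and they are known for chemokine secretion, uptake of debris and complement genes. CD103+ and CD11b+ cDC are distinct branches of the conventional lineage, which cross-present antigen to CD8 T cells and prime helper T cells, respectively.

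Signals are MAS5 intensities in arbitrary units, scaled by the authors to the same trimmed mean on every array. Side ranges give the lowest and highest of 6 arrays, and population values are the mean ± SD of 3 arrays. The gap is the distance on the log2 scale between the lowest array of the higher side and the highest array of the lower side. All log2 values were taken after adding 50 to the signal, which understates the fold of dim genes, and a log2 difference carries the SE of the limma fit. The median signal of single arrays ran from 72.2 to 108, and arrays of the same population correlated across genes at 0.973 or more, although genes are not independent replicates. The Gapdh 3' to 5' ratio, a sign of RNA quality, ran from 1.55 to 3.27 on the cDC side and from 1.48 to 1.91 on the moDC side. Within cDC it ran from 1.68 to 3.27 (median 3.26) in CD103+ and from 1.55 to 2.29 (median 1.72) in CD14lo cDC. The part of this ratio in the results, between the sides or within cDC, was not tested.

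Marker genes of each lineage lay on the labelled side. The marker Flt3 had signals of 2262 to 7676 (median 4326) in cDC against 91.5 to 833 (median 405) in moDC. Dpp4, which encodes the surface peptidase CD26, had 3680.3 to 5130.2 (median 4079.7) in cDC and 292 to 1928 (median 733) in moDC. On the other side, C5ar1, the receptor for the complement fragment C5a, ran at 301 to 3126 (median 1451) in cDC and 12257 to 16408 (median 13943) in moDC. Ccl2, the main monocyte chemoattractant, ran at 65.4 to 627 (median 272) and 8046 to 14147 (median 12517). In none of these 4 genes did an array of one side reach the other. Of 12 conventional DC markers tested, 9 did not overlap and were higher in cDC, while Bcl11a, Irf8 and Batf3 overlapped. Of 11 monocyte-derived markers, 10 did not overlap and were higher in moDC, and Ccr2, the receptor that brings monocytes into tissue, overlapped. Itgae (CD103), Itgam (CD11b) and Cd14 were among the separated genes and encode proteins used in the sort, so their levels were fixed in part by the gates, while Ly6c1 and Ly6c2 had no tested probe set.

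The promoters of the markers Flt3, Dpp4 and C5ar1 and of H2-Ob and Ccl12, which had the largest gap on each side, are printed because these are genes that define the sides or part them most widely. Each runs from 250 bases before to 50 bases after the start site, 5′ to 3′ on the gene's strand, from RefSeq on build GRCm38.p6. Capitals mark matches to 4 motifs searched on both strands. The TATA box was searched as TATAAA. The site of AP-1, a factor of activated cells, was searched as TGACTCA. The core site of the myeloid factor PU.1 was searched as AGGAAGT. The interferon response element was searched as GAAANNGAAA. Flt3 lies on the minus strand at chr5:147400440-147400739, Dpp4 on the minus strand at chr2:62412182-62412481, H2-Ob on the plus strand at chr17:34238655-34238954, C5ar1 on the minus strand at chr7:16259289-16259588 and Ccl12 on the plus strand at chr11:82101595-82101894.
Flt3: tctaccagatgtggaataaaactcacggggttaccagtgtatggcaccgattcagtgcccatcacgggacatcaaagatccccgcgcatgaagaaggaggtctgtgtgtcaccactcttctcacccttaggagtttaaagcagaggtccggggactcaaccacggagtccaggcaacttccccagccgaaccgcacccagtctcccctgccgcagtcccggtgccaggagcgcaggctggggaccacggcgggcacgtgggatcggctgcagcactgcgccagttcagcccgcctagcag
Dpp4: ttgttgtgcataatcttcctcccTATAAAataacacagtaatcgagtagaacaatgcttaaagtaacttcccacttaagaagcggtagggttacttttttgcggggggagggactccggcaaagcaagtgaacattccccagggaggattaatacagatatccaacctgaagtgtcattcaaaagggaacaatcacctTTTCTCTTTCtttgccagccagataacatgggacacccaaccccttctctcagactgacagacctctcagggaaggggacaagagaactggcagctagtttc
H2-Ob: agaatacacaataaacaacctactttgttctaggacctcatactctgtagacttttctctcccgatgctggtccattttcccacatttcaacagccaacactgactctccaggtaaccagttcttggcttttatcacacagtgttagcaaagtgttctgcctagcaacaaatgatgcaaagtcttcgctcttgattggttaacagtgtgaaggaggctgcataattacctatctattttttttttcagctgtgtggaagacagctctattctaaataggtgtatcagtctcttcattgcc
C5ar1: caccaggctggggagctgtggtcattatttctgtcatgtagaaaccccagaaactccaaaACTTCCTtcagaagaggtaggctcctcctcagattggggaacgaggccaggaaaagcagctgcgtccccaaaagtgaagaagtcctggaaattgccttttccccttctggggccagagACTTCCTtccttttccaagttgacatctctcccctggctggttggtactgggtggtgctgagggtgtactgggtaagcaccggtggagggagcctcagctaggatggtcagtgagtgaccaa
Ccl12: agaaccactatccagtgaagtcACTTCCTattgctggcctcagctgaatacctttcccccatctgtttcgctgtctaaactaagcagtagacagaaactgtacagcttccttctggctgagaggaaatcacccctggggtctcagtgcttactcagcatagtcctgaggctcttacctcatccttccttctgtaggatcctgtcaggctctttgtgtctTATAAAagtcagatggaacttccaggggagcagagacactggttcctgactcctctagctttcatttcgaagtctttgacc
The Ccl12 window holds a TATA box 31 bases before the start site and a PU.1 core 228 bases before it, the latter on the other strand. The C5ar1 window holds a PU.1 core 190 and another 72 bases before the start site. The Dpp4 window holds an interferon response element 52 bases before the start and the TATAAA letters 227 bases before it. In the Flt3 and H2-Ob windows no searched letters were found, which says nothing about the factors.

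Among promoters of all genes tested, 7.21% held the TATA box, 3.82% AP-1, 9.36% the PU.1 core and 3.15% the interferon response element. For genes higher in moDC the shares were 9.11%, 5.44%, 10% and 5.19%, and for genes higher in cDC they were 7.41%, 2.47%, 10.9% and 4.41%. In the 111 promoters of moDC genes with a gap of at least 1, the shares were 16.2%, 9.91%, 14.4% and 8.11%. In the 23 promoters of cDC genes with such a gap they were 4.35%, 4.35%, 26.1% and 0%. A match is a description of letters and not a binding site, and a gene can have several promoters in the table.

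The gap was wide for few genes. It reached at least 1 on the log2 scale, so that the nearest arrays were a doubling apart, in 21 genes higher in cDC and 108 higher in moDC. It reached 2 in 1 and 28 genes, with medians of 0.16 and 0.28. It was under 0.1 in 195 and 161 genes. Of the 1195 genes (10.9% of those tested) whose side means differed by at least 1, 524 still overlapped. At the edge of the rule, Mllt10, Ercc5 and Cd1d2 were just inside on the cDC side, with Mllt10 at 975 to 1379 in cDC and 839 to 974 in moDC, and Zfp281, Suox and Hook2 just outside, with Zfp281 at 784 to 1213 and 561 to 784. On the moDC side Oaz2, Gaa and Bpnt1 were just inside, with Oaz2 at 1133 to 1259 in cDC and 1259.8 to 1681 in moDC, and Tmem192, Eif4g2 and Dpp3 just outside, with Dpp3 at 416 to 536 and 536 to 761. Mllt10, Ercc5, Oaz2, Gaa and Bpnt1 lost their separation under at least 1 other scaling or summary of probe sets.

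**Figure D1:**
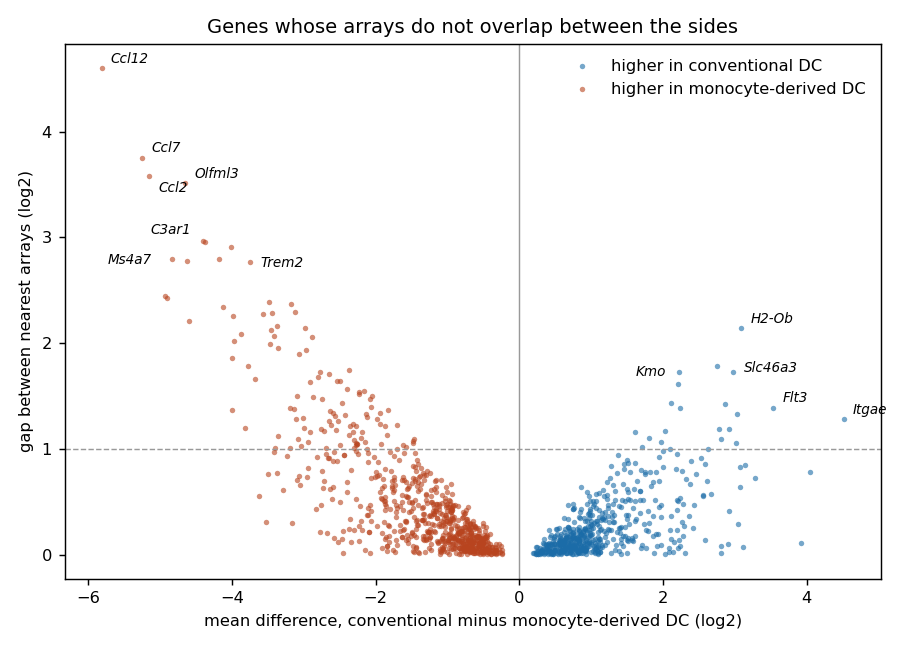
Each point is 1 of 1276 genes whose arrays did not overlap, with the mean log2 difference (cDC minus moDC) on the x axis and the log2 gap between the nearest arrays on the y axis. The dashed line marks a gap of 1, which 21 genes higher in cDC (blue) and 108 genes higher in moDC (red) reached, with H2-Ob at 2.14 and Ccl12 at 4.60 the highest of each side.

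**Figure D2:**
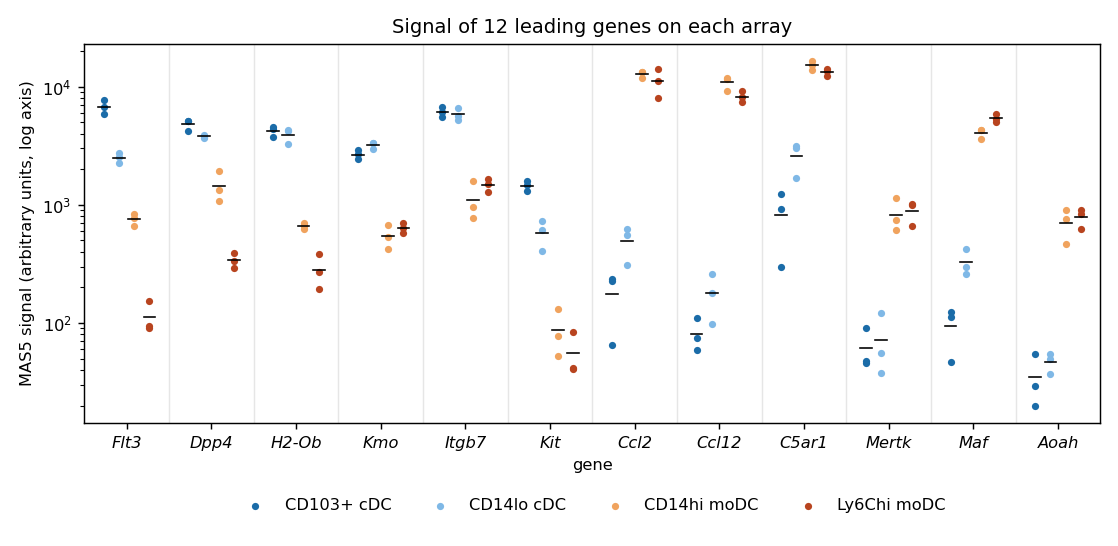
MAS5 signal on a log axis of 12 genes on each of 12 arrays, with points for arrays and black bars for the mean of 3 arrays. Flt3, Dpp4, H2-Ob, Kmo, Itgb7 and Kit were higher on every cDC array, and Ccl2, Ccl12, C5ar1, Mertk, Maf and Aoah on every moDC array.

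The widest gap on the cDC side belonged to H2-Ob, the beta chain of H2-O, which restrains peptide loading of MHC class II. Its signals were 3253 to 4581 (median 4263) in cDC and 194 to 699.8 (median 505) in moDC, a log2 difference of 3.09 ± 0.13. CD103+ cDC held 4237 ± 414 and CD14lo cDC 3926 ± 583 (SD, n = 3, 95% interval of the log2 difference -0.27 to 0.50), whereas CD14hi moDC at 664 ± 37 lay above Ly6Chi moDC at 283 ± 95.4 (limma adjusted p = 2.0e-04). H2-Oa, the alpha chain of the same molecule, was at 1728 to 4175 (median 2813) in cDC and 211 to 1164 (median 348) in moDC. Of 20 tested genes of MHC class II presentation, 5 did not overlap and were higher in cDC and 2 in moDC. The others higher in cDC were Ap1s3, a subunit of a clathrin adaptor (2698 to 5081 against 422 to 1346), Rfx5, a factor that binds class II promoters (1522 to 2356 against 705 to 1054), and H2-Eb2 (697 to 933 against 54.5 to 541). Those higher in moDC were Lgmn, the lysosomal asparaginyl endopeptidase (969.8 to 1638 in cDC, 3869.7 to 5897 in moDC), and Marchf8, a ubiquitin ligase acting on surface proteins, whose separation was lost when arrays were centred at their median. The list's median log2 difference was 0.19, against 0.00092 over all genes tested.

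In MHC class I presentation, 4 of 22 tested genes were higher in cDC and 0 in moDC, with a list median of 0.21. Arrays separated in 18.2% of this list, against 11.7% of all genes tested. Wdfy4, needed for cross-presentation, was clearest at 5877 to 14663 (median 9315) in cDC and 1930.5 to 2782 (median 2333) in moDC. Within cDC it was 2.13-fold higher in CD103+ than in CD14lo cDC (limma adjusted p = 3.6e-05). Nlrc5, a regulator of class I genes, Tap1, a peptide transporter, and Tapbpl, a peptide editor, had gaps of 0.12, 0.11 and 0.02. Separation was lost under median centring for Nlrc5 and Tap1 and under quantile normalization for Tapbpl.

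Growth factor and cytokine receptors mostly overlapped, and the separated ones lay in both directions. Flt3 had a log2 difference of 3.53 ± 0.12 between the sides. CD103+ cDC averaged 6749 ± 891 and CD14lo cDC 2513 ± 246, against 753 ± 88.4 for CD14hi moDC and 113 ± 34.3 for Ly6Chi moDC (SD, n = 3), so the level also fell from population to population within each side (limma adjusted p = 4.3e-06 and 1.3e-08). Kit, the stem cell factor receptor, ran at 408 to 1588 (median 1022) in cDC against 40.7 to 132 (median 65.1) in moDC. Il12rb2, a chain of the interleukin 12 receptor, ran at 532 to 1227 against 84.5 to 289. Higher in moDC were both chains of the TGF-beta receptor, Tgfbr2 (721 to 1685 in cDC, 2616 to 4157 in moDC) and Tgfbr1 (1843 to 2971, 4489.6 to 5867), together with Il10rb, Csf1r and Csf3r. Csf3r is also a neutrophil marker, and 1 of 4 such markers tested separated. The summed signal of 9 neutrophil markers was 4180 to 4436 in Ly6Chi and 1125 to 2239 in CD14hi moDC. It was 389 to 1894 in CD103+ and 990 to 1359 in CD14lo cDC, and the part of neutrophils was not tested. Csf1r, the receptor for macrophage colony-stimulating factor, was separated by a gap of only 0.21. Its mean was 1285 ± 208 in CD103+ cDC but 12052 ± 631 in CD14lo cDC, next to 18096 ± 3221 in CD14hi moDC and 16122 ± 1239 in Ly6Chi moDC. Among 45 receptors tested, 3 were higher in cDC, 5 were higher in moDC and 37 overlapped (17.8% separated, against 11.7% of all genes tested).

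Transcription factors were found on both sides, with 13 of 94 tested genes higher in cDC and 15 in moDC (list median -0.02). Mycl, a MYC family member used by cDC, ran at 443 to 1711 (median 823) in cDC and 10.5 to 223 (median 117) in moDC. Zbtb46, a factor that marks the conventional lineage, ran at 2467 to 5329 (median 3787) and 131 to 1638 (median 699.5), with CD14hi moDC 6.26-fold above Ly6Chi moDC (limma adjusted p = 1.7e-08). Stat4 and Spib showed the same order among moDC, with Spib at 522 ± 64 in CD14hi and 124 ± 12.5 in Ly6Chi moDC (SD, n = 3, limma adjusted p = 1.9e-06). Spib was also higher in CD14lo than in CD103+ cDC (limma adjusted p = 0.0029). Ahr, the receptor for aromatic compounds, was unlike these: it ran at 1725 to 2900.1 in cDC and 536 to 1487 in moDC, and Ly6Chi moDC were 1.99-fold above CD14hi moDC (limma adjusted p = 9.5e-05). Foxo1, Irf5, Stat3, Zeb1, Etv6, Stat5a, Ikzf2 and Bhlhe40 were the other factors of the list higher in cDC.

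On the moDC side Maf, a factor of the macrophage program, led with 47.1 to 423 (median 191) in cDC and 3619 to 5919 (median 4686) in moDC, a log2 difference of -4.38 ± 0.15. Mitf, which drives lysosomal genes, ran at 37.4 to 481 (median 252) and 1428 to 1871 (median 1697). Nr1h3, the oxysterol sensor LXR-alpha, ran at 60.2 to 469 (median 267) and 1197 to 1964 (median 1712). Between CD14hi and Ly6Chi moDC no difference passed the test for Mitf or Nr1h3, with 95% intervals of the log2 difference from -0.61 to 0.32 and from -0.45 to 0.39. Cebpb, a factor of inflamed myeloid cells, had a gap of 0.63, and CD14lo cDC at 3495 ± 434 stood above CD103+ cDC at 469 ± 140.0 (limma adjusted p = 5.2e-10). Zeb2, needed by monocytes, also had a step within cDC, from 118 ± 60.8 in CD103+ to 2453 ± 142 in CD14lo cDC, against 3768 ± 197 in CD14hi and 4809 ± 357 in Ly6Chi moDC (SD, n = 3). Egr2, Cebpa, Atf3, Bhlhe41, Fos, Creb5, Mafg, Irf7, Batf2 and Tfec were the other factors of the list higher in moDC. With each array centred at its median, 10 factors of the list and not 15 were higher in moDC, and Irf7 was among those lost.

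**Figure D3:**
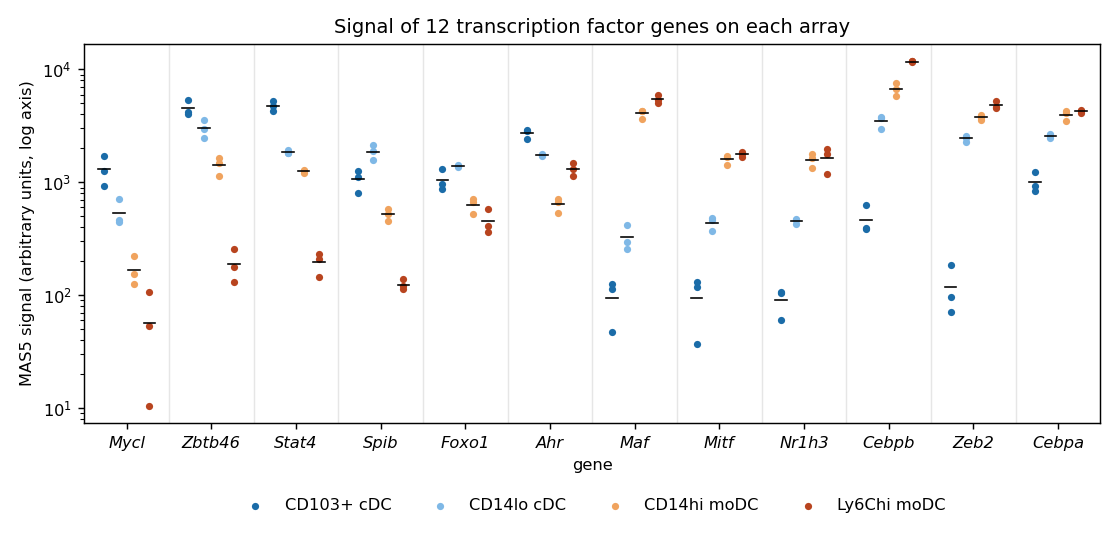
MAS5 signal on a log axis of 12 transcription factor genes on each of 12 arrays, with points for arrays and black bars for the mean of 3 arrays. Mycl to Ahr were higher on every cDC array, and Maf to Cebpa on every moDC array, with CD14lo cDC above CD103+ cDC in Cebpb and Zeb2.

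Most separated adhesion genes were higher in cDC, and integrins were split. Itgb7, the integrin chain that pairs with CD103, was at 5205 to 6725 (median 5829) in cDC and 767 to 1669.5 (median 1389) in moDC. CD103+ cDC stood at 6111 ± 588 and CD14lo cDC at 5817 ± 741 (SD, n = 3, 95% interval of the log2 difference -0.34 to 0.49), although its partner Itgae was 17.7-fold higher in CD103+ cDC, as the gate selects. Among 43 tested adhesion and junction genes, 10 were higher in cDC and 3 in moDC. Epcam, an epithelial type adhesion molecule, ran at 431 to 2882 (median 1487) in cDC and 22.9 to 240.1 (median 84.2) in moDC. Nectin1 ran at 1716 to 2479 against 209.8 to 1074, and the tight junction genes Tjp3 and Cldn1 at 279 to 932 against 191 to 213 and 571 to 8354 against 13.5 to 525. Cldn1 had a gap of only 0.11 beside a mean difference of 3.92 ± 0.17, and CD103+ cDC held 8001 ± 555 and CD14lo cDC 859 ± 270.1. Pkp3, Alcam, L1cam, Selplg, Ctnna1 and Gjb2 were also higher in cDC, and L1cam lost separation when probe sets of a gene were averaged. Of 10 lung epithelium markers tested, Lyz1 separated and was higher in moDC, and the others overlapped. Sftpc, Sftpb, Sftpa1, Sftpd and Scgb1a1 had their highest means in CD103+ cDC. For Sftpc the means were 928 in CD103+ and 151 in CD14lo cDC, against 355 in CD14hi and 195 in Ly6Chi moDC. Hopx and Nkx2-1 were highest in Ly6Chi moDC. The part of epithelial cells in these results was not tested. Integrins higher in moDC were Itga9 (6.29 to 218 in cDC, 1306 to 2801 in moDC), Itgb5 (254 to 749, 2922 to 7162), Itga6 (70.0 to 217, 824 to 1726), Itgav and the sort gene Itgam.

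Several receptors of the natural killer gene complex were higher in cDC. Klrd1, which encodes CD94, ran at 2388 to 6758 (median 4416) in cDC and 449 to 1386 (median 655) in moDC, and it was 2.46-fold higher in CD14lo than in CD103+ cDC (limma adjusted p = 1.0e-05). Klrk1, which encodes NKG2D, ran at 2539 to 4849.7 (median 3236) and 873 to 1454 (median 1142), and Klre1 at 132 to 212 and 15.1 to 69. Of the other natural killer cell markers Tbx21 was separated and higher in cDC, with means of 220.2 in CD103+ and 482 in CD14lo cDC against 69.9 in CD14hi and 43.2 in Ly6Chi moDC, while Ncr1, Nkg7, Eomes, Gzmb and Klra8 did not pass the filter on low signal, with no array above 60.4 in any of them, and Prf1 and Gzma overlapped. The summed signal of the 10 natural killer markers was 5981 to 7653 in CD103+ cDC, 10982 to 13684 in CD14lo cDC, 2787 to 3995 in CD14hi moDC and 2638 to 2843 in Ly6Chi moDC, and its part in these results was not tested. Kit and Cd8a, which are also markers of mast cells and T cells, were separated while Cpa3, Fcer1a, Ms4a2, Cd3g, Cd3d and Cd3e did not pass the filter on low signal. Cd3e reached 111 on its highest array and had its highest mean, 76.6, in CD103+ cDC, as Cd8a did. The T cell marker Cd4 overlapped and went the other way. Its means were 662 in CD14hi and 6.74 in Ly6Chi moDC, against 43.0 in CD103+ and 156 in CD14lo cDC. The mast cell marker Hdc also overlapped, with means of 133 in CD14hi and 335 in Ly6Chi moDC, against 41.8 in CD103+ and 74.8 in CD14lo cDC. The part of such cells was not tested. Cd8a lost separation when probe sets were averaged.

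Inhibitory and paired receptors split evenly, with 8 of 43 tested genes higher on each side. Btla, an inhibitory receptor of cDC and lymphocytes, ran at 3335 to 9284 (median 5373) in cDC and 310.0 to 1539.5 (median 724) in moDC. Cd244a ran at 4191 to 6777 against 1643 to 2823. On the moDC side Siglec1, the sialic acid receptor of macrophages, ran at 1.31 to 306 (median 125) in cDC and 1074 to 3059.9 (median 2295) in moDC. Lair1, a collagen receptor, ran at 238 to 1242 and 3158 to 4913, Pilra at 70.8 to 3066 and 6041 to 8968, and Cd84 at 539 to 1076 and 2861 to 3255. Sirpa, which binds the don't-eat-me signal CD47, was separated by a gap of 0.22 only, with 245 ± 88.8 in CD103+ cDC and 7259.6 ± 583 in CD14lo cDC against 9856 ± 746 and 9922 ± 679.9 in CD14hi and Ly6Chi moDC (SD, n = 3).

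Costimulation and maturation genes had a list median of 1.28 toward cDC, with 10 of 50 tested genes higher in cDC and 0 in moDC. The separated share was 20%, against 11.7% of all genes tested. Icosl, the ligand of ICOS, ran at 7403 to 10368 in cDC and 3310.0 to 6989.8 in moDC. Serpinb6b, a serine protease inhibitor, ran at 4275 to 10472 and 54.1 to 4057, and CD14hi moDC at 3871 ± 287 lay 26.1-fold above Ly6Chi moDC at 110.2 ± 74.6 (SD, n = 3, limma adjusted p = 1.1e-10). Slco5a1 and Vsig10 had the same pattern among moDC (8.84-fold and 6.18-fold, limma adjusted p = 1.5e-08 and 3.2e-08). Ccr7, the receptor that guides DC to the lymph node, overlapped, with 13155 to 29925 in cDC and 442 to 18341 in moDC. The costimulatory receptors Tnfrsf4 (OX40) and Tnfrsf18 (GITR) were separated, at 483 to 2862 against 36.4 to 207 and 934 to 3466 against 166 to 775.

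Of 28 tested genes of arginine, tryptophan and amino acid metabolism, 4 were higher in cDC, 3 in moDC and 21 overlapped, among them the tryptophan route gene Afmid. Kmo, which hydroxylates kynurenine, ran at 2434 to 3362 (median 2941) in cDC and 426 to 701 (median 604) in moDC. Haao, which acts further along that route, ran at 1131 to 1473 (median 1206) and 284 to 478 (median 375). Neither differed within a side beyond the test: the 95% interval of the log2 difference between CD103+ and CD14lo cDC was -0.61 to 0.07 for Kmo and -0.23 to 0.52 for Haao. Kynu, another enzyme of the route, had a gap of 0.09. Arg1, which consumes arginine, was higher in moDC (8.53 to 75.9 in cDC, 105 to 3459.6 in moDC), with 169 ± 98.4 in CD14hi and 3108 ± 308 in Ly6Chi moDC (SD, n = 3, 15.3-fold, limma adjusted p = 1.5e-08).

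Sterol and fatty acid synthesis was higher in cDC wherever arrays separated, in 6 of 34 tested genes, with 0 on the other side and a list median of 0.49. That is 17.6% separated, against 11.7% of all genes tested. The members were Pmvk, Hmgcs1, Fasn, Elovl5, Srebf2 and Cyp51, all with gaps of 0.27 or less. Hmgcs1, the entry enzyme of the mevalonate route, ran at 7375 to 13048 in cDC and 3078 to 6462 in moDC. Srebf2, the factor that turns on sterol genes, ran at 3976 to 6247 and 1875 to 3849. Elovl5 lost separation under median centring.

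Cell cycle genes leaned the same way, with 12 of 93 tested higher in cDC and 1 in moDC (list median 0.71). Mki67, the proliferation marker, ran at 2516 to 6807 (median 3942) in cDC and 632 to 2294 (median 1591) in moDC. It was 2.25-fold higher in CD103+ than in CD14lo cDC (limma adjusted p = 2.7e-04). Kif23, a motor of cell division, ran at 320.3 to 859 and 98.6 to 216, and Smc4, a condensin subunit, at 2127 to 3510.3 and 1123 to 1824. E2f8, Spag5, Aurkb, Rfc5, E2f2, Top2a, Pold1, Dut and Kif11 were the others higher in cDC, and Cdk6 the gene higher in moDC. E2f8 and E2f2 lost separation when probe sets were averaged, and E2f2 also under median centring.

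Of 38 tested survival and death genes, 5 were higher in cDC and 1 in moDC (15.8% separated, against 11.7% of all genes tested). Among those higher in cDC, Pmaip1, Dapk1 and Birc2 had gaps of 0.25, 0.17 and 0.16, and Bcl2l14 one of 0.02. Birc3 was also higher in cDC, but lost separation when probe sets were averaged and under median centring. Mlkl, the effector of necroptosis, was the survival and death gene higher in moDC (2.98 to 110.0 in cDC, 157 to 558 in moDC). Cytoskeletal genes were balanced, with 8 of 82 on each side (19.5% separated). Septin3 (448 to 7643 in cDC, 46.9 to 239.5 in moDC), Septin6 and Dock9, a Cdc42 exchange factor (216 to 1234, 4.06 to 129.9), led in cDC. Rhob, a small GTPase of endosomes (286 to 1515 in cDC, 3969 to 5212 in moDC), Septin8 and Acta2 led in moDC. Other cDC genes with wide gaps were Tbc1d10c, which restrains calcineurin and Ras (418 to 1144 in cDC, 6.67 to 85.9 in moDC), Slc46a3, a lysosomal transporter (1949 to 4599, 184 to 553), Kcnip3, a calcium sensor (393 to 644, 33.8 to 114), Nccrp1 (925 to 1983, 51.7 to 314), Lrrk2, a large kinase (646 to 1487, 105 to 217), and the lipid receptor P2ry10 (3553 to 7397, 259 to 1531).

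Chemokine ligands held the largest gaps of all genes tested. Of 28 ligands, 16 were separated and higher in moDC and 0 in cDC, with a list median of -1.68. Ccl12, a monocyte attractant, ran at 59.1 to 260.5 (median 104) in cDC and 7484 to 11731 (median 9194) in moDC, a log2 difference of -5.81 ± 0.15. Ccl7, which acts on the same receptor, ran at 57.9 to 213 (median 74.9) and 3496 to 8247 (median 5397). Every moDC array of these genes and of Ccl2 was above every cDC array by at least 3 on the log2 scale, and within moDC the 95% intervals of the log2 difference (CD14hi minus Ly6Chi) were -0.06 to 0.85 for Ccl12, -0.05 to 1.16 for Ccl7 and -0.38 to 0.86 for Ccl2. Cxcl2, a neutrophil attractant, ran at 984 to 2391 (median 1750.1) in cDC and 10088 to 14323 (median 11813) in moDC.

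Other chemokines differed between the moDC populations. Pf4, which platelets also store, was 8572 ± 1095 in CD14hi and 2054 ± 415 in Ly6Chi moDC (SD, n = 3, 4.13-fold, limma adjusted p = 0.0016), against 31 to 302 on the cDC arrays. Ccl8 had the same order, at 2943 ± 1366 and 531 ± 240.5 (limma adjusted p = 2.0e-04). Ccl24, Cxcl14, Cxcl3, Ccl3, Ccl4, Ccl6, Ccl9, Ppbp, Cxcl10 and Ccl25 were also higher in moDC. Of the other platelet markers, Ppbp was separated with the same order as Pf4, at means of 233 in CD14hi and 80.6 in Ly6Chi moDC against 17.4 and 16 in CD103+ and CD14lo cDC. Itga2b overlapped, and Gp9, Gp1bb, Gp6 and Treml1 did not pass the filter on low signal. The summed signal of 7 platelet markers was 210.0 to 556 on cDC arrays, 7827 to 9984 in CD14hi moDC and 1743 to 2626 in Ly6Chi moDC, most of it from Pf4. Its part in these results was not tested.

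Cytokine genes followed the chemokines, with 7 of 22 tested higher in moDC and 0 in cDC (list median -0.85). Il10, which dampens inflammation, was near the floor in cDC at 2.17 to 30.4 and reached 201 to 582 (median 314) in moDC. Csf1, the growth factor of macrophages, ran at 112 to 238 in cDC and 419.9 to 1438 in moDC. Il1rn, the interleukin 1 receptor antagonist, ran at 802 to 4817 and 6936 to 12297. Il1a, Il12a, Il6 and Il18bp were the others.

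Among chemotactic receptors, 7 of 25 were higher in moDC and 2 in cDC. C3ar1, the receptor for complement fragment C3a, was the widest, at 83.6 to 804 (median 269.7) in cDC and 6627 to 8121 (median 7508) in moDC. Cmklr1, the chemerin receptor, ran at 5.97 to 267 (median 135) and 1238 to 3872 (median 2412). Cx3cr1, the fractalkine receptor, was separated by 0.77 and rose 11.2-fold from CD103+ to CD14lo cDC (limma adjusted p = 1.4e-09). Xcr1, the receptor of CD103+ cDC for the T cell chemokine Xcl1, was higher in cDC, with 2656 ± 744 in CD103+ cDC and 94.8 ± 41.2 in CD14lo cDC against 33.2 ± 6.64 for CD14hi moDC and 16.9 ± 9.07 for the Ly6Chi population (SD, n = 3).

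Complement had the largest share of separated genes of any list of 10 or more, with 9 of 14 tested higher in moDC, 0 higher in cDC and a median of -1.94. The 3 chains of C1q, which starts the classical pathway, were all among them. C1qa ran at 37.1 to 924 (median 259.8) in cDC and 5246 to 14209 (median 10224) in moDC, C1qc at 31 to 1771 (median 571) and 9773 to 18219.9 (median 13253), and C1qb at 531 to 9286 (median 4511) and 19427 to 29055 (median 22185). On all 3, CD14lo cDC lay above CD103+ cDC (5.35-fold, 8.50-fold and 8.02-fold, limma adjusted p = 2.5e-06, 2.9e-07 and 2.4e-08), and the moDC arrays were still beyond them. Cfb, the protease of the alternative pathway, was 1124 ± 138 in CD14hi and 5262 ± 608 in Ly6Chi moDC (SD, n = 3, limma adjusted p = 5.8e-04). C1ra, C2, C3ar1, C5ar1 and Itgam were the rest of the separated genes.

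The genes of antibody-mediated uptake were also higher in moDC, in 4 of 11 Fc receptor genes tested and 0 in cDC. Fcgr3 ran at 231 to 4017 (median 1706) in cDC and 8235 to 10269 (median 9417) in moDC. Fcgr1, the high-affinity receptor, ran at 111 to 2549 and 4308 to 9326, and Fcgr4 at 93.6 to 1306 and 2144 to 4168. Fcgr2b, the inhibitory receptor, ran at 2132 to 6029 and 7802 to 10534. CD14lo cDC were above CD103+ cDC in all 4 (limma adjusted p = 4.4e-10, 3.5e-10, 6.6e-09 and 8.6e-06).

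Scavenger and efferocytosis receptors, which take up modified lipoproteins and dying cells, were separated in 16 of 37 genes tested, all higher in moDC (list median -0.78). Msr1, the class A scavenger receptor, ran at 2.64 to 339 (median 123) in cDC and 2622 to 6122 (median 4297) in moDC. Trem2, a lipid receptor of macrophages, ran at 7.46 to 101 (median 53.7) and 984 to 1649 (median 1218). Mertk, a receptor for dying cells, ran at 37.7 to 123 (median 51.7) and 609.7 to 1133 (median 868) and did not differ within either side beyond the test, with 95% intervals of the log2 difference of -0.67 to 0.49 within cDC and -0.69 to 0.46 within moDC. Stab1 ran at 11.4 to 606 and 2335 to 4502, and Lrp1, Axl, Gas6, Pros1, Cd300lb, Cd300ld and Colec12 were also on this side.

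Pattern recognition showed the same direction. The sort gene Cd14 ran at 596 to 1714 (median 1345) in cDC and 9073 to 14322 (median 11121) in moDC. Of 39 tested Toll-like receptors and innate sensors, 12 were higher in moDC, and 1, Nlrc5, in cDC. Tlr8 ran at 1.01 to 82.6 in cDC and 223 to 313 in moDC, Tlr2 at 457 to 2003 and 3891 to 7468, and Tlr4, the receptor for lipopolysaccharide, at 183 to 684 and 1154 to 2108. Irak3, a brake on Toll-like signalling, ran at 59.3 to 445 and 779 to 1125. Tlr7, Tlr6, Tlr1, Tlr13, Unc93b1, Naip2 and Ly86 were the others. Among C-type lectins, 9 of 28 were higher in moDC and 2 in cDC. Clec4d ran at 116 to 727 (median 274) in cDC and 3239 to 7580.0 (median 5808) in moDC, Clec5a at 189 to 482 and 1524 to 1984, and Cd93 at 13.1 to 1153 and 3061 to 6387. Clec4e (Mincle), which senses mycobacterial lipid, was 3.90-fold higher in Ly6Chi than in CD14hi moDC (limma adjusted p = 0.0013).

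Lysosomal genes gave more genes higher in moDC than any other list, with 32 of 77 tested higher in moDC and 0 in cDC (list median -0.47). The phospholipase Pla2g15 ran at 89.8 to 378 (median 182) in cDC and 1325 to 1845 (median 1584) in moDC. The cathepsin Ctsl ran at 151 to 443 in cDC and 1062 to 2847 in moDC, and Ctsd, Ctsc, Ctsb and Ctsa were on the same side. Tpp1, a tripeptidyl peptidase, ran at 811 to 1931 and 3973 to 4513. The glycosidases Gla, Naglu, Neu1, Glb1, Hexa and Gaa, the proton pump subunits Atp6v1a, Atp6v1b2 and Atp6ap1, and the membrane proteins Lamp1, Lamp2, Npc1 and Cd68 were also members. Gaa sat at the edge of the rule. Lyz1, a lysozyme gene, is read by a probe set that can share transcripts with Lyz2.

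Cholesterol efflux and lipid handling followed, with 19 of 66 higher in moDC and 3 in cDC. Apoe, the lipoprotein component, ran at 13.2 to 523 (median 317) in cDC and 3939.8 to 6179 (median 4997) in moDC, and Abca1, the cholesterol exporter, at 16 to 206 (median 131) and 1201 to 2042 (median 1777). Abcc3 ran at 121 to 214 and 1119 to 2576, and Pla2g7, which degrades platelet-activating factor, at 32.2 to 366 and 1761 to 2543. With each array centred at its median, 15 and not 19 were higher in moDC and 2 in cDC. Plin2, which coats lipid droplets, was among those that lost separation.

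In iron and oxidant defence, 11 of 43 genes were higher in moDC and 0 in cDC. Slc11a1, the phagosomal metal transporter, ran at 555 to 1476 (median 912) in cDC and 5009 to 7816 (median 6724) in moDC, and Hmox1, which degrades haem, at 199 to 835 (median 409.6) and 2702 to 4181 (median 3397). Blvrb and Blvra, which act after Hmox1 in haem breakdown, were both members, with Blvrb at 127 to 549 and 1178 to 1899. Cybb and Ncf4, subunits of the phagocyte oxidase, and the dismutase Sod2 were also members. Of 197 solute carrier genes tested, 28 were higher in moDC and 11 in cDC, and 158 overlapped (19.8% separated, against 11.7% of all genes tested). Their list median was only -0.12. The amino acid transporter Slc7a8 ran at 128 to 235 (median 157) in cDC and 1228 to 3052 (median 2407) in moDC.

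Secreted growth factors and matrix genes were separated in 19 of 42 genes, all higher in moDC (list median -1.16). Olfml3, a secreted glycoprotein, ran at 6.49 to 68 (median 55.9) in cDC and 1297 to 4153 (median 2391) in moDC. Igf1, insulin-like growth factor, ran at 33.4 to 84.2 (median 63.4) and 592 to 3947 (median 2215) and was 4.88-fold higher in CD14hi than in Ly6Chi moDC (limma adjusted p = 2.5e-07). Ecm1 and Pdgfa had the opposite order among moDC (3.11-fold and 1.85-fold, limma adjusted p = 2.0e-06 and 0.0032). Fn1 encodes fibronectin. The summed signal of 10 fibroblast markers, which include Fn1 and Mgp, was 2294 to 4736 on cDC arrays and 12071 to 20914 on moDC arrays. Most of the moDC sum came from Fn1 and Mgp. Fn1 averaged 7785 in CD14hi and 15337 in Ly6Chi moDC, and Mgp 4067 and 2939. Lum and Pdgfra did not pass the filter on low signal. Pdgfra still averaged 93.1 in CD14hi and 63.6 in Ly6Chi moDC, against 34.5 in CD103+ and 33.0 in CD14lo cDC. Fn1 and Mgp separated. Col1a1, Col1a2, Col3a1, Dcn, Bgn and Sparc overlapped, but each had higher means in both moDC populations than in either cDC population, such as 289.8 and 251 against 167 and 104 for Col3a1. The part of such cells in these results was not tested. Vcan was separated but lost this under median centring and quantile normalization.

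Proteases that remodel matrix were on the same side, with 15 of 54 proteases and inhibitors higher in moDC and 4 in cDC. Plau, urokinase, ran at 1001 to 2084 (median 1287) in cDC and 6065 to 7183 (median 6353) in moDC, and Mmp14, a membrane metalloproteinase, at 963 to 1645 (median 1411) and 4760.0 to 7186 (median 5865). Mmp13, a collagenase, was near the floor in cDC at 0.284 to 11.5 and reached 1087 ± 283 in CD14hi and 153 ± 45.6 in Ly6Chi moDC (SD, n = 3, limma adjusted p = 2.5e-07). Those higher in cDC were Dpp4, Adam11, Spint2, a membrane protease inhibitor (1588 to 4368 in cDC, 48.2 to 1005 in moDC), and Serpinb6b.

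Of 25 tested genes in the list of purine receptors and enzymes, 9 were separated and higher in moDC, 1 in cDC, and 15 overlapped. The 1 higher in cDC was P2ry10, the lipid receptor named above. P2rx7, the ATP-gated channel of inflammasome activation, ran at 183 to 522 (median 416) in cDC and 1615 to 2131 (median 1993) in moDC. P2ry6, P2rx4, P2ry13 and P2ry12 were separated by 0.59, 0.52, 0.70 and 0.18. In the membrane-spanning 4A family, 4 of 9 genes were higher in moDC, led by Ms4a7 at 43.7 to 529 (median 155) in cDC and 3974 to 8449 (median 6052) in moDC. Adgre1, which encodes F4/80, ran at 127 to 409 (median 236) and 1879 to 3931 (median 3043). Among genes in no function list, Rnase4, a secreted ribonuclease, ran at 72.5 to 152 (median 99.4) and 1466 to 3887 (median 2518).

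Other lists are given beside the 11.7% of all genes tested that separated, and all but the glycolysis list lay near or below it. The separated shares were 12.1% for interferon-stimulated genes, 9.26% for NF-kappaB and feedback genes and 21.1% for glycolysis and pentose phosphate genes. They were 3.33% for respiratory chain genes, 5.04% for genes named Zfp and 2.04% for genes named as ribosomal proteins. Of 66 interferon-stimulated genes, 2 were higher in cDC and 6 in moDC, the widest being the guanylate-binding protein gene Gbp6 (117 to 154 in cDC, 429 to 797 in moDC). Irf7, Bst2 and Ifi35 of this list lost separation under median centring. Of 54 NF-kappaB and feedback genes, 2 and 3 separated, with the kinase gene Ikbke at 35 to 145 in cDC and 410.0 to 857 in moDC. Of 38 glycolysis and pentose phosphate genes, 2 were higher in cDC and 6 in moDC. Of 90 respiratory chain genes, 2 and 1 separated, and of 238 genes named Zfp, 8 and 4. Of 49 genes named as ribosomal proteins, the separated one was Rps6ka3, which encodes a kinase and no ribosomal protein.

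**Figure D4:**
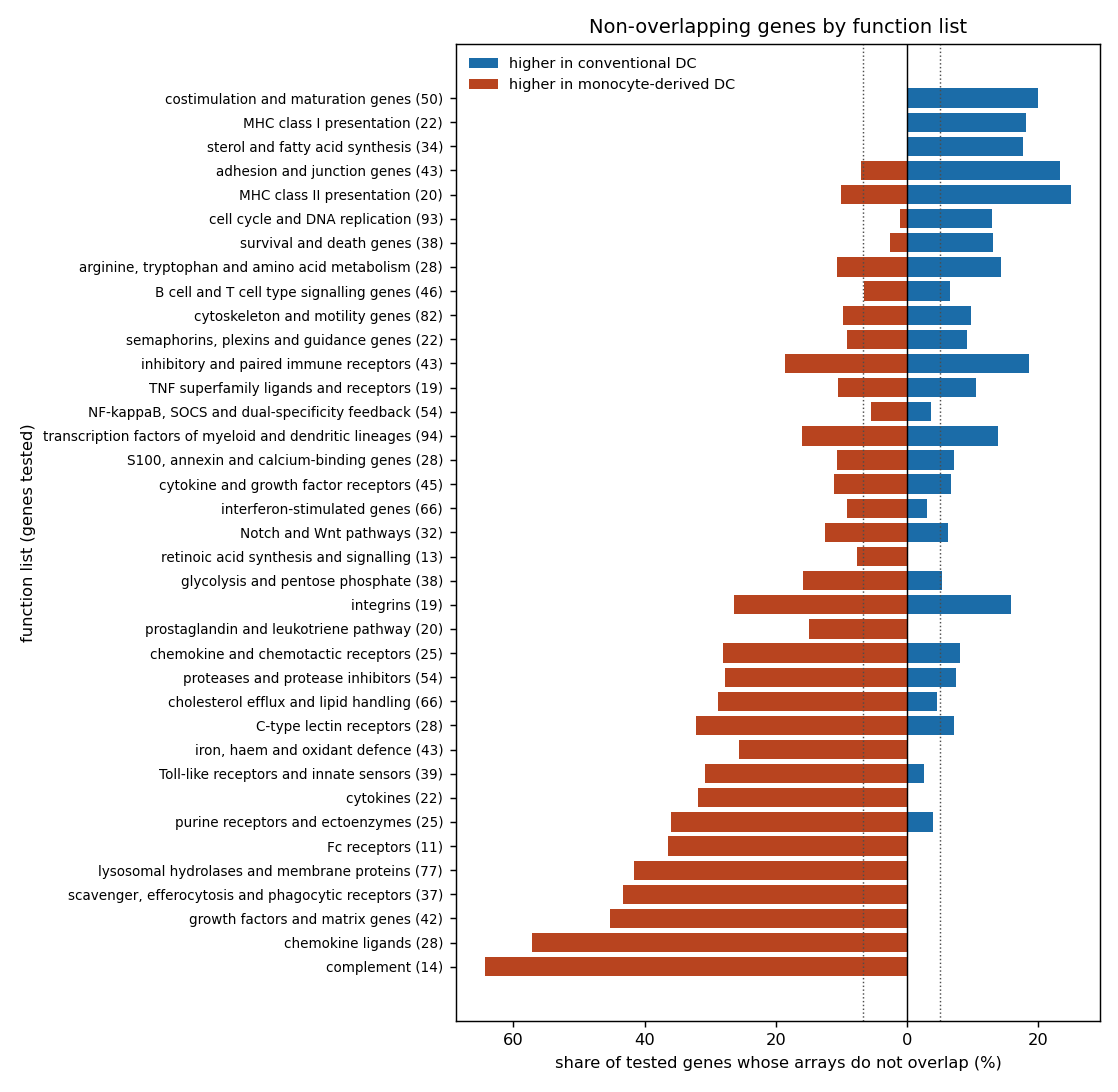
Share of tested genes in each function list with at least 10 genes tested whose arrays did not overlap, with genes higher in cDC to the right (blue) and higher in moDC to the left (red), and the number of genes tested in parentheses. Dotted lines mark the shares over all genes tested, 4.97% and 6.7%, with complement and chemokine ligands farthest to the left.

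Differences inside each side were tested with limma, since these contrasts were not those that chose the genes, although the rule favours genes whose arrays lie close together within a side. Between CD103+ and CD14lo cDC, 28.7% of all genes tested passed, and 13.4% were higher in CD103+ cDC and 15.3% in CD14lo cDC. Of the 543 genes higher in cDC, 209 (38.5%) were higher in CD103+ cDC and 22 (4.05%) in CD14lo cDC. Of the 733 genes higher in moDC, 14 (1.91%) were higher in CD103+ cDC and 292 (39.8%) in CD14lo cDC. Between CD14hi and Ly6Chi moDC, 18.2% of all genes tested passed, and 11.4% were higher in CD14hi and 6.81% in Ly6Chi moDC. Of the genes higher in cDC, 150 (27.6%) were higher in CD14hi and 8 (1.47%) in Ly6Chi moDC, and of those higher in moDC, 48 (6.55%) were higher in CD14hi and 113 (15.4%) in Ly6Chi moDC. The balance of directions between the moDC populations depended on the scaling. Of all calls there, 62.6% were higher in CD14hi moDC, but 31.0% were when each array was centred at its median, which moved the median difference of all genes to -0.21 on the log2 scale. With that centring the share of moDC genes higher in Ly6Chi moDC was 27.3% and not 15.4%. At the scaling as deposited it was 10.2% without Ly6Chi moDC replicate 1 and 9.48% without replicate 3. Without CD14hi moDC replicate 2 the share higher in CD14hi moDC was 4.18%, and without CD14lo cDC replicate 2 the share of cDC genes higher in CD14lo cDC was 2.33%. The share of 1.91% lay between 1.09% and 1.25% without any one CD14lo cDC array, and the share of 1.47% was 0.646% without CD14hi moDC replicate 1, 0.883% without Ly6Chi moDC replicate 1 and 0.98% without Ly6Chi moDC replicate 3.

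By mean log2 signal alone, 337 of 543 genes higher in cDC (62.1%) had CD103+ above CD14lo cDC and CD14hi above Ly6Chi moDC. Of 733 genes higher in moDC, 413 (56.3%) had the reverse order. Over all genes tested the shares were 30.4% and 31.9%. With each array centred at its median, they were 55.1% of the genes higher in cDC and 64.6% of those higher in moDC, against 19% and 42.3% of all genes. The array nearest the other side was most often from CD14lo cDC facing CD14hi moDC, in 311 (57.3%) and 393 (53.6%) of the genes. These counts describe the order of the means and include genes that passed no test within a side.

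**Figure D5:**
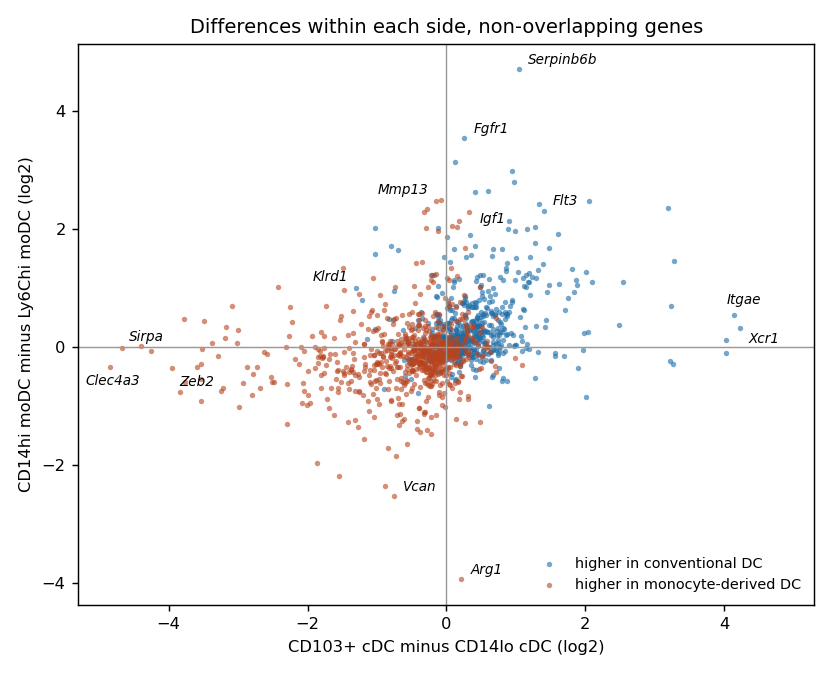
Each point is 1 of 1276 separated genes, with the log2 difference between CD103+ and CD14lo cDC on the x axis and between CD14hi and Ly6Chi moDC on the y axis. Genes higher in cDC (blue) lie mostly to the upper right and genes higher in moDC (red) mostly to the lower left, with Arg1 and Serpinb6b at the extremes of the y axis.

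Among genes higher in cDC, the steepest toward CD103+ cDC were Xcr1 (4.23 ± 0.24 on the log2 scale), Itgae (4.14 ± 0.29), Gpr33 (4.02 ± 0.25), Gcsam (4.03 ± 0.25) and Bcl2l14 (3.27 ± 0.21), with limma adjusted p of 3.5e-10, 3.4e-09, 1.1e-09, 1.1e-09 and 1.4e-09. Their CD14lo cDC arrays were low but still above every moDC array. The steepest toward CD14lo cDC were Klrd1 (-1.30 ± 0.17), L1cam (-1.21 ± 0.15), Ankrd55 (-1.14 ± 0.24), Tbx21 (-1.03 ± 0.29), the factor T-bet, and Arap2 (-1.03 ± 0.22), with limma adjusted p of 1.0e-05, 7.4e-06, 0.0013, 0.012 and 0.0016. Tbx21 no longer passed once replicate 2 of CD103+ cDC was left out (adjusted p = 0.059). Those highest in CD14hi relative to Ly6Chi moDC were Serpinb6b (4.71 ± 0.22), Fgfr1 (3.55 ± 0.18), Slco5a1 (3.14 ± 0.23), Spint2 (2.98 ± 0.21) and Klrb1b (2.80 ± 0.17), with limma adjusted p of 1.1e-10, 2.2e-10, 1.5e-08, 6.8e-09 and 1.4e-09. Fgfr1 lost its separation between the sides under quantile normalization and Klrb1b when probe sets were averaged.

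Among genes higher in moDC, those with the largest step up from CD103+ to CD14lo cDC were Clec4a3 (-4.84 ± 0.23, CD103+ minus CD14lo), Sirpa (-4.67 ± 0.17), Cd300ld (-4.40 ± 0.31), Ctsa (-4.26 ± 0.19) and Zeb2 (-3.96 ± 0.19), with limma adjusted p of 5.4e-11, 2.7e-12, 4.0e-09, 1.8e-11 and 4.4e-11. In each of these genes CD103+ cDC were lowest and CD14lo cDC approached the moDC arrays without crossing them. A few went the other way within cDC, among them Il1a (0.99 ± 0.28), Tacc2 (0.72 ± 0.21) and P2ry12 (0.71 ± 0.21), with limma adjusted p of 0.013, 0.013 and 0.015. These 3 calls were lost without single arrays: Il1a without CD103+ cDC replicate 2 or CD14lo cDC replicate 3 (adjusted p = 0.052 and 0.069), Tacc2 without replicate 2 of either cDC population (0.0504 and 0.074) and P2ry12 without replicate 1 of either (0.08 and 0.053). Between the moDC populations, Arg1 (-3.93 ± 0.29), Vcan (-2.52 ± 0.27), Ldhb (-2.35 ± 0.31), Cfb (-2.18 ± 0.39) and Clec4e (-1.96 ± 0.39) were highest in Ly6Chi moDC, with limma adjusted p of 1.5e-08, 1.8e-06, 1.9e-05, 5.8e-04 and 0.0013. Mmp13 (2.48 ± 0.23), Pmp22 (2.49 ± 0.25), Ccl8 (2.33 ± 0.38), Igf1 (2.29 ± 0.21) and B3galnt1 (2.29 ± 0.24) were highest in CD14hi moDC, with limma adjusted p of 2.5e-07, 9.3e-07, 2.0e-04, 2.5e-07 and 1.1e-06.

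Genes that separated the lineages and were near level inside both sides numbered 256 (47.1%) in cDC and 333 (45.4%) in moDC, when a difference under 0.5 on the log2 scale is called near level, against 6420 (58.7%) of all genes tested. On the cDC side the widest of them were Kmo, Itgb7, Kcnip3, Haao, Mical1 and Mfsd6. Mical1, an enzyme that dismantles actin, ran at 3803 to 5411 (median 4573) in cDC and 1370.3 to 1958 (median 1812) in moDC. On the moDC side they were Aoah, Abcc3, Mertk, Gas7, Il10 and Tmem171. Aoah, which inactivates lipopolysaccharide, ran at 19.9 to 54.9 (median 43.3) in cDC and 465 to 906 (median 795) in moDC, and Gas7 at 422 to 642 (median 461) and 2274 to 3538 (median 2717).

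Probe sets other than the one that chose a gene gave a further reading of the same RNA. Of 559 further probe sets of genes higher in cDC, 206 (36.9%) separated the same way, and of 693 further probe sets of genes higher in moDC, 397 (57.3%) did. 0 separated in the opposite direction. The share was 9.29% over all further probe sets and 3.86% over those of genes that were not separated. The sign of the mean difference matched in 550 of 559 and 680 of 693. These probe sets were not used by the rule, but they read the same arrays.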

How the data were processed

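Messenger RNA was measured on 12 Affymetrix mouse arrays, 3 for each of 4 sorted populations. The deposited values are MAS5 intensity values on a linear scale, per the submitters' processing notes, and the authors' values have a 2% trimmed mean near 500 on each array. For MAS5 no version is given in the sources used here, and detection calls were not used. Of 45101 probe sets, 64 controls were left out, and 25156 lay above the array median on at least 3 arrays. GEO's platform annotation gave 34945 probe sets 1 symbol, 932 several and 9160 none, and 34741 matched RefSeq. The probe set with the highest mean stood for each of 10934 genes, 5649 of which had several.

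Signals were taken as log2 after adding 50. Within-side differences were fitted over all 12 arrays with limma 3.58.1 in R 4.3.3, with Benjamini-Hochberg adjustment over all genes at 0.05, and the code was tested on simulated data. Adjusted p-values measure the spread between these samples. The set of named genes held the markers and sort genes, the 12 widest gaps on each side and markers of other cells. It held up to 5 members a side and 2 overlapping genes per list, and the 3 genes just inside and just outside the rule. The 5 largest within-side differences in each direction and the 6 widest near-level members were in it too. Not all of the set is printed, and most of its overlapping genes are not. Other list members are named without values, or with a value where a result turned on it. Members and lists were chosen with earlier results of these data known. Alternatives were the scaling, filter, added constant, probe set summary, block and arrays left out.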

Additional observations from a re-analysis of the deposited data

How the results depend on the processing

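The counts of 543 and 733 separated genes ran from 458 to 612 and from 559 to 820 over the other scalings, filters, added constants and probe set summaries. Under quantile normalization 499 and 688 of the same genes remained, and with arrays centred at their medians 418 and 604. A gap of at least 1 left 21 and 108. Leaving out 1 array, which can only raise these counts, gave 566 to 689 and 761 to 878. Within the sides, 3142 and 1993 genes were called, 1181 and 845 with at least 2-fold, and 2514 to 3142 and 1506 to 2088 with 1 array left out. Centring at the median gave 2902 and 2685, with 832 higher in CD14hi and 1853 in Ly6Chi moDC against 1248 and 745, and the cause was not tested. Further probe sets separated the same way in 209 to 248 and 402 to 426 cases with 1 array left out, an alternative chosen after seeing the data. Under quantile normalization 1 lysosomal gene and 1 iron and oxidant gene were separated and higher in cDC, where none was as deposited. Of 318 named genes, 45 lost their gap under at least 1 setting, and of 461 named within-side calls 111 were lost under at least 1, with 0 reversed. Losses were followed gene by gene only in this named set. Other list members given without a loss may also have lost their gap.

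With replicate number as a block, 3233 and 2060 genes were called. Same-numbered arrays had residual correlations from -0.106 to 0.236 (median 0.0568, 18 pairs), against -0.265 to 0.234 (median -0.0187, 36 pairs) for other arrays. These ranges overlap and cannot tell whether the numbers pair the samples.

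Signal near the floor limits the folds of dim genes, since detection calls were not used here. With 3 arrays in a population and pooled mice, differences between single animals are not measured.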

Other observations

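In genome order among 10890 tested genes with a position, 31 runs of at least 3 adjacent genes lay on one side, 14 on the cDC side and 17 on the moDC side, with 101 genes in all. The moDC runs held the chemokine genes Ccl2, Ccl7, Ccl12 and Ccl8, another chemokine run of Ccl6, Ccl3 and Ccl4, the C1q genes C1qb, C1qc and C1qa, and the Fc receptor genes Fcgr2b, Fcgr4 and Fcgr3. A lectin run held Clec4a2, Clec4n, Clec4d and Clec4e, which sense microbial and damaged-cell ligands. On the cDC side, Klre1, Klrd1 and Klrk1 formed a run in the natural killer gene complex, and Stat5b, Stat5a and Stat3 a run of signal transducers. These runs were picked out after their values were seen, no test was made, and neighbouring paralogs can share probes.

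Of the 1276 separated genes, 460 were in at least 1 of 48 lists and families and 816 were in none. Beyond named genes, 4008 kept probe sets had no single gene symbol, and of these 126 were separated and higher in cDC and 130 were higher in moDC.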
